A study of Rattus norvegicus with 6 samples.

Results

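Heme, iron and metal handling was followed through 9 genes in rat neural stem/progenitor cells (NSPCs) cultured on carbon films of different conductivity, out of 17048 rows in each count table. The 9 were found by gene symbol, namely heme oxygenase 1 (Hmox1), the biliverdin reductases Blvra and Blvrb, the ferritin chains Fth1 and Ftl1, the iron exporter Slc40a1, the transferrin receptor Tfrc, and the metallothioneins Mt2A and Mt3. Each symbol had 1 row, all 9 passed the filter on low counts, and none was at 0 in all libraries, although Slc40a1 had counts in only 2 of the 6. The genes were chosen by name, and the proposal was selected on the measured level of Hmox1 against the “High” film, which was already known, so values of the 9 genes against “High” are given as descriptions and without p-values of their own, and they support nothing on their own.

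The cells were wild-type (WT) primary cells from the telencephalon of Sprague-Dawley rat embryos, grown as neurospheres, and all groups shared the same stemness-maintaining medium and a culture of 24 h on films coated with poly-D-lysine and laminin. There were 2 libraries for each film, and each film combined carbon nanotubes with nanoribbons of graphene oxide whose conductivity was lowered by longer oxidation, with “High” classed by the study as supraphysiological and “Medium” and “Low” as like nerve tissue. All films therefore carried carbon, and no group without a film was among the libraries. Nothing in the labels says that the 2 libraries of a film came from separate animals or cultures, so p-values measure only the spread between these samples, which may be technical. Oxidation time and conductivity changed together across the films, and no batch of library preparation was given, so these cannot be told apart. The poly-D-lysine concentration was the same for “High” and “Low” and differed for “Medium”.

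Heme oxygenase 1 opens the heme ring and releases iron, carbon monoxide and biliverdin, and biliverdin reductases turn biliverdin into bilirubin. Free iron is stored in ferritin, a shell of heavy and light chains of which the heavy chain oxidizes iron, while the transferrin receptor brings iron into the cell and ferroportin, the product of Slc40a1, lets it out. Metallothioneins are small cysteine-rich proteins that bind zinc and copper, and Mt3 is best known from the brain. Hmox1 and both ferritin genes are known targets of the NRF2 oxidative stress response, and ferritin and transferrin receptor mRNAs are also controlled after transcription by the iron regulatory proteins, which act in opposite directions on the 2 kinds of mRNA.

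Total counts per library were 5478066 and 5412882 on “High”, 5124863 and 5914540 on “Medium”, and 6213676 and 5460031 on “Low”. The 9 genes together took 1.46% and 1.38% of the counts outside ribosomal RNA on “High”, 0.877% and 0.919% on “Medium”, and 1.17% and 1.04% on “Low”. These shares include Hmox1, on whose level the group was chosen. It had 24539 and 19747 counts on “High”, 5357 and 5351 on “Medium”, and 5809 and 6988 on “Low”. The share of ribosomal RNA rows in all counts also differed, at 26.1% and 38.4% on “High”, 7.27% and 13.0% on “Medium”, and 7.16% and 7.64% on “Low”. Levels below are TMM-normalized CPM, which are counts scaled to library size after edgeR's adjustment between libraries, and with 3′ end counting they do not grow with transcript length.

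Of the markers that define NSPCs, Nes, Sox2, Vim, Slc1a3, Fabp7 and Hes1 had counts in all 6 libraries, while Msi1, Prom1 and Hes5 had 0 in all of them. The summed level of the 11 marker rows was 3026 and 2691 CPM on “High”, 4750 and 4292 on “Medium”, and 3819 and 5047 on “Low”, with Vim as the most abundant. Erythroid rows, which would mark blood in the culture, had 12 rows of which 9 were at 0, among them Hbb, Hba2 and Alas2, and their summed level was at most 9.30 CPM, in “High” replicate 2, from Hba1. For microglia and macrophages, which recycle heme and export iron, 8 of 12 rows were at 0, among them Csf1r, Itgam, Cx3cr1 and the C1q genes. Their sum was 57.3 and 0.239 CPM on “High”, 0.343 and 4.92 on “Medium”, and 21.6 and 0 on “Low”, with Cd68 as the most abundant. The 10 meningeal and vascular rows summed to 401 CPM in “Medium” replicate 2, mostly Col1a1 at 329 CPM, against at most 35.8 in any other library, although the meninges were removed when the tissue was taken. Neuronal rows summed to between 0.172 CPM in “Medium” replicate 1 and 33.9 in “Low” replicate 1, with Rbfox3 and Syt1 at 0. Rows of the oligodendrocyte lineage summed to 204 and 261 CPM on “High”, 527 and 375 on “Medium”, and 436 and 433 on “Low”, mostly Olig2, with Mag and Sox10 at 0. The part of other cell types in the results was not tested. In such bulk libraries, fewer cells of a type and less RNA per cell cannot be told apart.

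Hmox1 had the widest difference between the films among the 8 genes given a fold change. It was at 5056 and 4711 CPM in the “High” libraries, against 919 and 878 on “Medium” and 842 and 1173 on “Low”, so that the 4 “Medium” and “Low” libraries lay far under both “High” libraries. The group means were 4883 ± 244 CPM on “High”, 899 ± 29.5 on “Medium” and 1007 ± 234 on “Low” (SD, n = 2), and the log2 fold change was −2.28 (standard error 0.24) for “Low” and −2.44 (standard error 0.24) for “Medium” against the same “High” libraries. With both films averaged it was −2.36 (standard error 0.19), a level 5.13-fold lower. Hmox1 was the only 1 of the 9 genes under an adjusted p of 0.05 in edgeR's quasi-likelihood test in each of these comparisons, beside 10 of the 7729 rows tested (0.129%, with 0.0388% higher and 0.0906% lower) for both films together, 4 rows (0.0518%) for “Low” and 1 row (0.0129%) for “Medium”. This call was known when the group was chosen, and nothing is read from it. In the fits of single films against “High”, Hmox1 did not pass when library sizes alone were used for scaling or when the third film was left out of the fit. The share of ribosomal RNA was higher in the same 2 libraries that were high in Hmox1, and its part in the result was not tested. With the ribosomal RNA rows left out, the log2 fold change of Hmox1 over both films was −2.37. That step moved the median of all rows only from −0.12 to −0.13, so it does not test the part of ribosomal RNA.

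The biliverdin reductases, which act on the product of Hmox1, had other patterns. Blvra had 183 and 137 counts on “High”, 210 and 220 on “Medium”, and 43 and 175 on “Low”, which is 37.7 and 32.7, 36.0 and 36.1, and 6.23 and 29.4 CPM. Both “Low” libraries lay under both “High” libraries, with “Low” replicate 1 far under the other 5, and the “Medium” libraries lay between the “High” ones. The log2 fold change of “Low” and “Medium” against “High” was −0.47 with a standard error of 1.88, and it was −0.11 without “Low” replicate 1 and −1.23 without “Low” replicate 2. Blvrb had 6 and 474 counts on “High”, 620 and 374 on “Medium”, and 42 and 390 on “Low”. Replicates of 1 film thus differed far more than the films did, and the log2 fold change was −0.06 with a standard error of 1.58, moving to 5.44 without “High” replicate 2 and to −1.33 without “Low” replicate 2. At this spread no difference in Blvrb was detectable.

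The 2 ferritin chains differed in their pattern. Ftl1, the light chain, was at 530 and 570 CPM on “High”, 254 and 264 on “Medium”, and 322 and 273 on “Low”. The 4 “Medium” and “Low” libraries lay under both “High” libraries, with a log2 fold change of −0.99 (standard error 0.28), a level 1.98-fold lower, and values of −0.89 for “Low” and −1.09 for “Medium” alone. Fth1, the heavy chain, was at 2934 and 3014 CPM on “High”, 2558 and 2781 on “Medium”, and 3202 and 3889 on “Low”. The “Medium” libraries lay just under “High” and the “Low” libraries just above, and the log2 fold change over both films was 0.05 (standard error 0.17), and across the scalings tried it went from −0.01 with DESeq2's size factors to 0.44 with library sizes alone. Without “Low” replicate 2 it was −0.02. Among all rows tested, 10.1% had the 4 “Medium” and “Low” libraries under both “High” libraries, as Hmox1 and Ftl1 did, and 8.06% had them above, as 1 of the 9 genes did. For single films, 5 of the 9 genes did not overlap with “High” on “Low” (37.4% of all rows) and 4 on “Medium” (34.8%). In TMM-normalized CPM, Fth1 was 1 of the 1.33% of rows with “Low” and “Medium” on opposite sides of “High”. This place of “High” depended on the scaling. With library sizes alone, the log2 fold change of Fth1 against “High” was 0.23 for “Medium” and 0.66 for “Low”, both above 0.

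**Figure D1:**
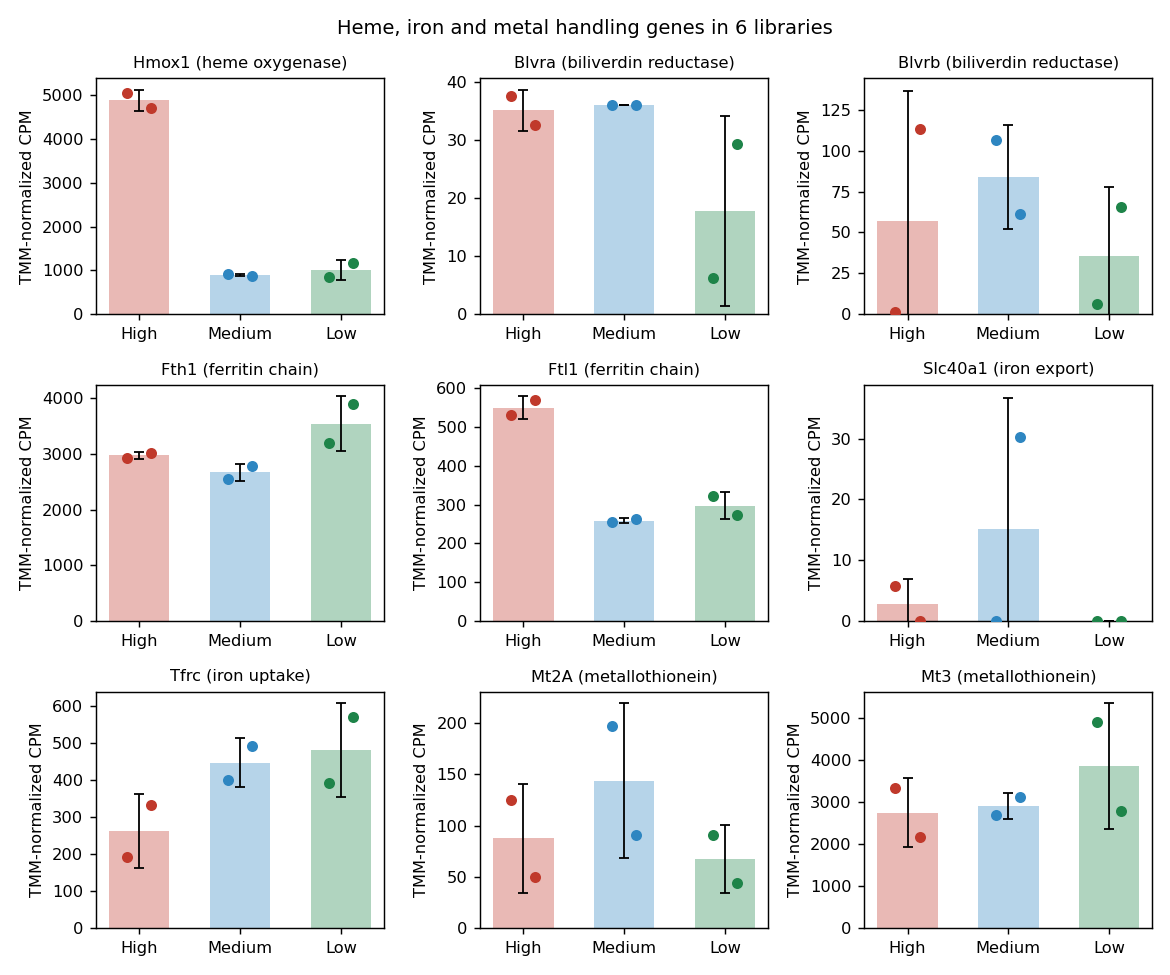
TMM-normalized CPM of the 9 genes by film, with a point for each library, a bar for the mean of 2 libraries and a line for the SD. Hmox1 at 5056 and 4711 CPM and Ftl1 at 530 and 570 CPM on “High” stand above all “Medium” and “Low” libraries, Tfrc at 192 and 333 CPM on “High” stands under them. In Fth1 “High” stands between “Medium” and “Low”, and in the other 5 genes the 4 “Medium” and “Low” libraries overlap with “High”.

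The ratio of the ferritin chains within a library does not depend on the scaling between libraries. There were 18.1 and 18.9 Ftl1 counts per 100 Fth1 counts on “High”, 9.95 and 9.49 on “Medium”, and 10.05 and 7.01 on “Low”. The means were 18.5 ± 0.605, 9.72 ± 0.326 and 8.53 ± 2.15 (SD, n = 2), so “High” stood apart from both other films by far more than its own spread. Relative to the same gene, Hmox1 was at 172 and 156 counts per 100 Fth1 counts on “High”, 36.0 and 31.6 on “Medium”, and 26.3 and 30.2 on “Low”, a ratio added after the values were seen. Both ferritin genes have many processed copies in mammalian genomes, and since reads with multiple alignments were counted, their counts are uncertain to that extent. The ratios compare libraries and not the abundance of 1 chain with that of another.

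Tfrc, the receptor that takes up transferrin-bound iron, was the 1 gene of the group with all 4 libraries of the other films above both “High” libraries. It was at 192 and 333 CPM on “High”, 401 and 494 on “Medium”, and 391 and 571 on “Low”. The 4 “Medium” and “Low” libraries lay above both “High” libraries, though the gap from “High” replicate 2 to the lowest of them was smaller than the gap between the “High” libraries. The log2 fold change was 0.82 (standard error 0.35), a level 1.77-fold higher, with 0.87 for “Low” and 0.77 for “Medium”. It depended on the “High” library used, at 0.48 without “High” replicate 1 and 1.27 without “High” replicate 2. Per 100 Fth1 counts, Tfrc was at 6.57 and 11.05 on “High”, 15.7 and 17.8 on “Medium”, and 12.2 and 14.7 on “Low”, so that on this scale too the films did not overlap with “High”.

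**Figure D2:**
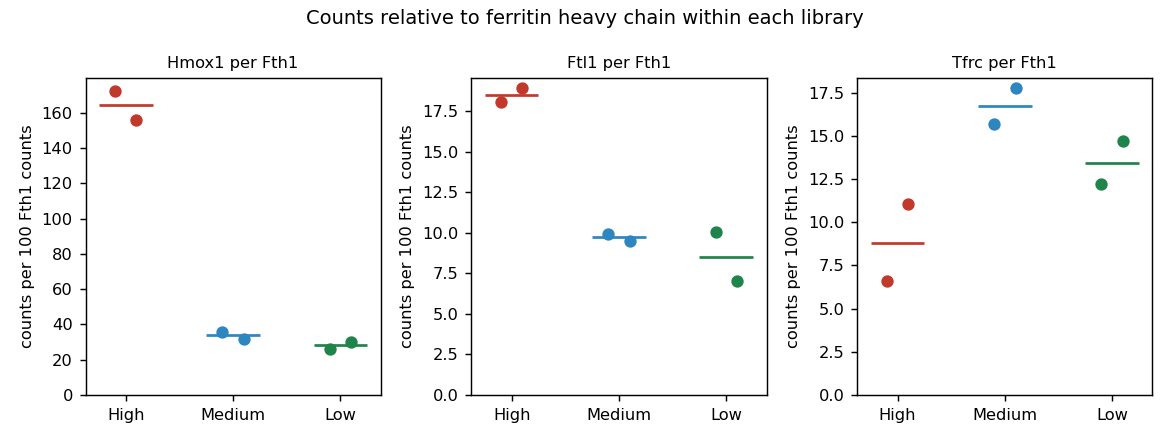
Counts of Hmox1, Ftl1 and Tfrc per 100 counts of Fth1 within each library, with a point for each library and a line for the mean of each film. Hmox1 and Ftl1 are highest in both “High” libraries (172 and 156, and 18.1 and 18.9 per 100 Fth1 counts), and Tfrc is lowest there (6.57 and 11.05).

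Slc40a1, the only known exporter of iron from cells, was near the limit of detection. It had 28 counts in “High” replicate 1, 185 in “Medium” replicate 2 and 0 in the other 4 libraries, where a count of 0 allows up to 3 counts, or from 0.435 CPM in “Low” replicate 1 to 0.716 CPM in “High” replicate 2. Intervals and floors of this kind cover counting error only. The larger value, 30.3 CPM, came from the library in which the meningeal and vascular rows were also high, and the part of such cells in it was not tested. No fold change is given for Slc40a1, since no film had counts in both of its libraries.

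The metallothioneins overlapped between the films. Mt3 was at 3316 and 2161 CPM on “High”, 2682 and 3120 on “Medium”, and 4904 and 2785 on “Low”. The highest value was that of “Low” replicate 1, the other 5 libraries overlapped, and the log2 fold change of “Low” and “Medium” against “High” was 0.29 (standard error 0.26), with 0.63 without “High” replicate 1 and 0.01 without “High” replicate 2. Mt2A was at 125 and 49.9 CPM on “High”, 197 and 90.5 on “Medium”, and 90.7 and 43.6 on “Low”, and the films overlapped. Its log2 fold change was 0.17 (standard error 0.79), and it turned to −0.35 without “High” replicate 2 and was 0.98 without “High” replicate 1. There were 3.78 and 2.32 Mt2A counts per 100 Mt3 counts on “High”, 7.37 and 2.91 on “Medium”, and 1.85 and 1.57 on “Low”, with overlap between “High” and “Medium” and with “Low” under both. Of astrocyte markers, which matter here because Mt3 is strong in astrocytes, Aqp4, Slc1a2 and Aldh1l1 had 0 counts in all libraries and Gfap had 70 in “High” replicate 1 alone. The list summed to 108 and 116 CPM on “High”, 103 and 164 on “Medium”, and 51.4 and 178 on “Low”, with Gja1 as the most abundant over all libraries and S100b above it in “High” replicate 2 and “Medium” replicate 1, and was lowest in the library with the highest Mt3.

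Promoter windows were at hand from RefSeq (build GRCr8) for 6 of the 9 genes, not for Hmox1, Fth1 and Ftl1. The 250 bases before the start are shown for the metallothioneins, the 2 members of 1 family, and for Tfrc, the gene with all 4 libraries of the other films above “High”. In the first 2, capitals mark the core of the metal response element, the site of the zinc-sensing factor MTF-1, searched as TGCACNC and TGCGCNC on both strands. In Tfrc, capitals mark ACGTG, the core of the hypoxia response element and also the centre of some E-boxes, searched on both strands.
Mt2A, GRCr8 chr19:10838709-10838958, minus strand: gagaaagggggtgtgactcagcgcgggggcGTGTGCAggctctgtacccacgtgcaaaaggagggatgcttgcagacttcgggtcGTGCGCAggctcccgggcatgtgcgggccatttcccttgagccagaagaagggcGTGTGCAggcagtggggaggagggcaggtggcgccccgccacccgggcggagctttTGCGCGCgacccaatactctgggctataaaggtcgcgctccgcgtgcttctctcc
Mt3, GRCr8 chr19:10856081-10856330, minus strand: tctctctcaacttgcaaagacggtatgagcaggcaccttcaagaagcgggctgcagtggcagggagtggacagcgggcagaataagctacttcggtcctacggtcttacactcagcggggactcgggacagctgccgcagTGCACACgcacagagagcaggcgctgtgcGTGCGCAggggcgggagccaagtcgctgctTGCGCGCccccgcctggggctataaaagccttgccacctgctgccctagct
Tfrc, GRCr8 chr11:81690319-81690568, minus strand: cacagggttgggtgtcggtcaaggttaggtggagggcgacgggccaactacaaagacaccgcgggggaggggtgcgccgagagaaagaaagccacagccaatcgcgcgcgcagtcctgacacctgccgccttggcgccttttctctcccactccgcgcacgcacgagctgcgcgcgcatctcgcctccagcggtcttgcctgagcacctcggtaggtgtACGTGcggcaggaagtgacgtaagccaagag
The metal response core occurred 4 times in Mt2A and 3 times in Mt3, without overlap, and 1.17% of all 33469 windows of this length had at least 3. Tfrc also had 3, of which 1 pair overlapped, and Blvra, Blvrb and Slc40a1 had 0. The ACGTG letters occurred 1 time in Tfrc. In Mt2A, where they are not in capitals, a single CACGTG stretch matched on both strands, and 16.6% of all windows held at least 1 match. A match is a description of these letters and not a site shown to be bound.

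**Figure D3:**
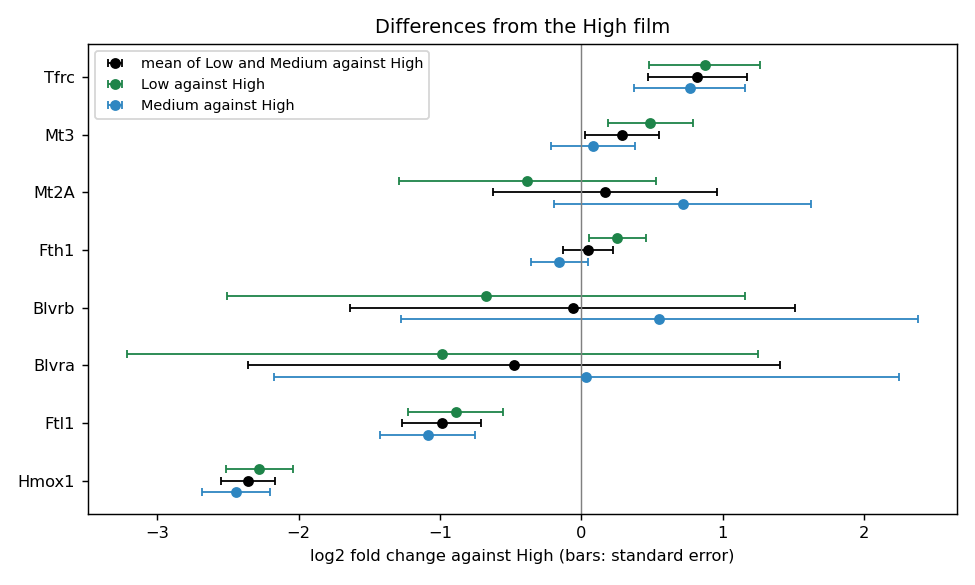
Log2 fold changes against “High” with standard errors for 8 genes, from edgeR's fit of all 6 libraries, for “Low”, “Medium” and their mean. Slc40a1 is left out because no film had counts in both libraries. For the mean of both films Hmox1 is at −2.36, Ftl1 at −0.99 and Tfrc at 0.82, and the bars of Blvra and Blvrb are the widest. All values share the 2 “High” libraries.

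“Low” and “Medium”, whose difference was not used to choose the genes, were compared directly. None of the 9 genes passed, with an adjusted p of 1 for each in edgeR's quasi-likelihood test and unadjusted p from 0.0698 to 0.792, beside 0 of 7729 rows called (0%) and 117 rows (1.51%) at an unadjusted p under 0.05. DESeq2 called 118 rows and 0 of the 9 genes. The smallest unadjusted p was that of Fth1, higher in both “Low” libraries than in both “Medium” libraries by a log2 fold change of 0.41 (standard error 0.20). Ftl1 was also higher in both “Low” libraries, by 0.20 (standard error 0.33), and Blvra was lower in both, by 1.02 (standard error 2.23). Among all rows, 29% did not overlap between the films, with 16.3% higher and 12.6% lower in both “Low” libraries than in both “Medium” libraries. For Hmox1 the difference was 0.16 (standard error 0.23) and for Tfrc 0.11 (standard error 0.39). These fits cannot show that the 2 films act alike.

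The wider pathway was taken from 5 lists set by function, with 86 rows found for 93 symbols, 16 rows at 0 in all libraries and 61 rows tested. In edgeR's quasi-likelihood test 0 of the 61 rows passed an adjusted p of 0.05 for “Low” and “Medium” against “High”, and 0 had an unadjusted p under 0.05, beside 0.129% and 5.5% of all rows. At an unadjusted p under 0.05 there was 1 row, Nubp2, for “Low” against “High” (4.27% of all rows) and 1, Ccs, for “Medium” against “High” (4.04%), both higher. The 61 rows had 35 log2 fold changes above 0 and 26 under it, with a median of 0.34 against −0.12 for all rows tested. Without “Medium” replicate 2 these medians were −0.27 and −0.63, and without “High” replicate 1 they were 1.36 and 0.32. DESeq2 called 3 of the 61, all higher, among them Ccs and Nubp2, beside 351 of all 7729 rows, which is a like share. Of the tested rows, 7 were higher in the 4 “Medium” and “Low” libraries than in both “High” libraries and 2 were lower, where 8.06% and 10.1% of all rows did so.

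Heme synthesis had 6 of 9 rows tested, with a median log2 fold change of 0.54. Alas1, the rate-limiting enzyme outside blood cells, was at 42.6 and 51.8 CPM on “High”, 40.0 and 30.3 on “Medium”, and 5.94 and 30.4 on “Low”, lower in all 4 with a log2 fold change of −0.90 (standard error 1.72). It was named after its values were seen. Fech, which inserts iron into the ring, had 1 and 18 counts on “High”, 0 and 292 on “Medium”, and 369 and 163 on “Low”, and Alad, which makes porphobilinogen, had 5 and 94, 88 and 122, and 394 and 301. Alas2, the erythroid form, was at 0.

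For heme transport and breakdown 6 of 12 rows were tested, with a median of 0.28. Hmox2, the constitutive heme oxygenase, had 172 and 18 counts on “High”, 322 and 116 on “Medium”, and 359 and 188 on “Low”, with a log2 fold change of 0.99 (standard error 1.93). It was given because it shares the reaction of Hmox1, after its values were seen, and its libraries overlapped between films. Bach1, the heme-sensitive repressor of Hmox1, had 0 counts in all 6 libraries, as did Abcg2 and Flvcr2. Pgrmc2, a heme chaperone and the most abundant row of this list, was at 103 and 32.4 CPM on “High”, 89.2 and 165 on “Medium”, and 82.0 and 179 on “Low”. Abcb10 had 63 and 131 counts in “Medium” replicate 2 and “Low” replicate 2 and at most 1 elsewhere, and Abcb6 had 134 in “High” replicate 2, 212 in “Medium” replicate 2 and 0 elsewhere.

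Iron uptake, transport and storage had 8 of 18 rows tested, with a median of 0.98, and Tf, Cp, Hamp, Tfr2, Hfe, Steap3, Steap1, Slc39a8 and Ftmt were at 0 in all libraries. Slc11a2, which carries iron out of the endosome after uptake by the transferrin receptor, had 0 and 15 counts on “High”, 685 and 93 on “Medium”, and 293 and 271 on “Low”. All 4 libraries were above both “High” libraries, with a log2 fold change of 4.91, a standard error of 2.55 and an adjusted p of 0.801 from edgeR's test. Pcbp2, an iron chaperone that loads ferritin and the most abundant row here, was at 86.7 and 236 CPM on “High”, 201 and 218 on “Medium”, and 158 and 264 on “Low”, with overlap. The mitochondrial iron importers Slc25a37 and Slc25a28 had at most 237 and 94 counts, and each had 0 in at least 2 libraries. Ncoa4, which delivers ferritin for breakdown, was at 109 and 129 CPM on “High”, 89.2 and 81.0 on “Medium”, and 136 and 125 on “Low”, and was named after its values were seen.

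All 19 rows for iron sensing and iron-sulfur clusters were tested, with a median of 0.37. Nubp2, a scaffold for cytosolic clusters, had 0 counts in both “High” libraries, 176 and 25 on “Medium”, and 282 and 186 on “Low”, and its adjusted p in edgeR's test was 0.801. Ireb2, an iron regulatory protein, had 49 and 223 counts on “High”, 0 and 10 on “Medium”, and 38 and 94 on “Low”. Glrx3, a glutaredoxin and the most abundant row, was at 500 and 450 CPM on “High”, 371 and 343 on “Medium”, and 276 and 574 on “Low”. Its log2 fold change was −0.29 (standard error 0.34).

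Zinc and copper handling had 22 of 28 rows tested, with a median of 0.26. Ccs, the copper chaperone of superoxide dismutase, had 1 and 0 counts on “High”, 479 and 143 on “Medium”, and 60 and 87 on “Low”. Commd1, which takes part in copper export, was at 21.2 and 28.9 CPM on “High”, 59.6 and 149 on “Medium”, and 108 and 74.0 on “Low”, and in both genes the 4 libraries lay above “High” with an adjusted p of 0.801 in edgeR's test. Cox17, the copper chaperone of cytochrome oxidase and the most abundant row, was at 164 and 384 CPM on “High”, 771 and 363 on “Medium”, and 290 and 479 on “Low”, with overlap. Of the other metallothioneins, Mt1a had from 31 counts in “Low” replicate 2 to 261 in “Low” replicate 1, and Mt4 had 217 counts in “Medium” replicate 2 alone. Mtf1, the zinc sensor, had 24 and 42 counts on “High”, 0 and 66 on “Medium”, and 374 and 53 on “Low”.

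The rows whose log2(CPM + 1) was most like that of Hmox1 over the 6 libraries, among 3341 candidates, were Aars (Pearson's r = 0.989), Hsp90ab1 (0.988), Cdkn1a (0.987) and Hsp90aa1 (0.985). These are a tRNA synthetase, the 2 cytosolic HSP90 chaperones and a cell cycle inhibitor. Aars was at 559 and 441 CPM on “High”, 166 and 161 on “Medium”, and 174 and 180 on “Low”. Cdkn1a was at 1607 and 1432 CPM on “High”, 446 and 501 on “Medium”, and 514 and 682 on “Low”, and all 4 were lower in the 4 “Medium” and “Low” libraries than in both “High” libraries. The likeness rests on 6 points in 3 groups of libraries that share depth and composition, and it is a description. Among the 9 genes, Ftl1 followed Hmox1 most closely (r = 0.953) and Tfrc ran opposite to both (−0.775 and −0.787), while Fth1 had r = −0.02 with Hmox1. A split between “High” and the 4 other libraries can by itself give a strong r with Hmox1. Of all rows tested, 10.1% were lower and 8.06% higher in all 4, so these values show no link between the genes.

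**Figure D4:**
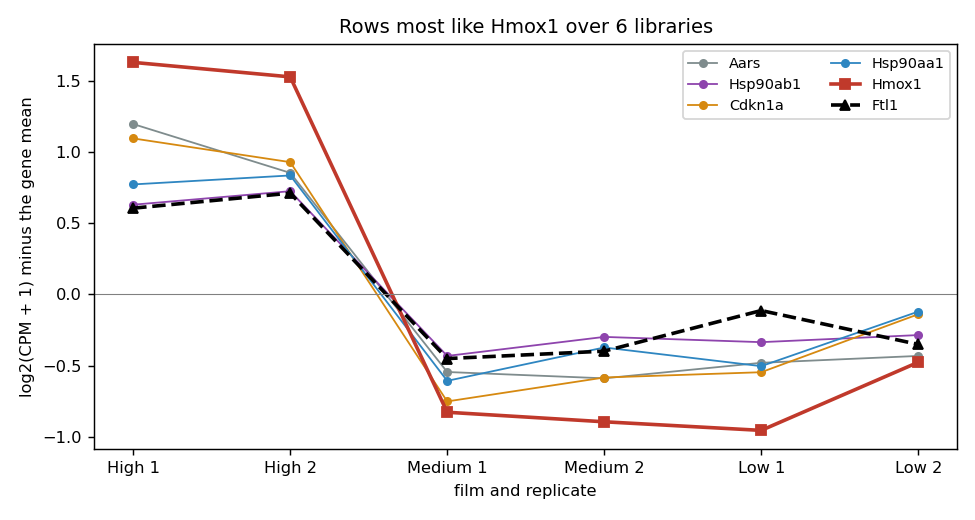
Log2(CPM + 1) minus the mean of each gene, for Hmox1, Ftl1 and 4 rows most like Hmox1, in each of the 6 libraries by film and replicate. All 6 lie above 0 in both “High” libraries and under 0 in the 4 others, and Hmox1 has the widest range.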

How the data were processed

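RNA of 6 libraries of rat NSPCs was measured by QuantSeq, which sequences the 3′ ends of polyadenylated transcripts. The authors aligned the reads with Bowtie2 and deposited whole-number counts per gene symbol from unique and multiple alignments, made with Bedtools coverage, without normalization. The submitters' processing notes name the rn6 build, and versions are not given in the sources used here. Since the promoter table is of another build, its coordinates apply to the sequences alone. Whether PCR duplicates were removed is not stated. Each table had 17048 rows with 16881 symbols, and 0 columns of other samples. The labels name Trizol for RNA isolation and the methods a Ribospin kit.

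The counts were filtered with filterByExpr (7729 rows), scaled with TMM, and the test was edgeR's quasi-likelihood test (edgeR 4.0.16, limma 3.58.1, R 4.3.3), with 1 fit of 3 group means and Benjamini-Hochberg adjustment over all rows at 0.05. The common dispersion was 2.04, with 3 residual degrees of freedom. Group means of 2 libraries are CPM ± SD. Exact permutation of 4 libraries against 2 cannot go below p = 0.133, and of 2 against 2 not below 0.333. Ratios used counts plus 1. DESeq2 1.42.0, limma-voom, other scalings and filters, fits of 2 films and leaving out each library were alternatives.

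The genes, lists and tests were chosen with earlier results of these data known. From the lists, the text names per list the 3 rows with the smallest unadjusted p for “Low” and “Medium” against “High” and the most abundant row, the 5 tested rows with a mean log2(CPM + 1) of at least 5 most correlated with Hmox1, and the ribosomal RNA and marker rows. Other genes, and rows at 0, were named after their values were seen. The ratios of Hmox1 and Tfrc to Fth1 were added after the data were seen. Of the symbols, Mt1 has its row as Mt1a. Some genes that the rule names are not reported here.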

Additional observations from a re-analysis of the deposited data

Results flagged for a closer look

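Of 70 genes checked (the 9 and the 61 tested rows of the wider lists), 2 had “High” between the other films, with no overlap of libraries, a pattern found in 1.33% of all 7729 rows tested. Fth1 was at 3202 and 3889 CPM on “Low”, 2934 and 3014 on “High”, and 2558 and 2781 on “Medium”, and the difference itself, “Low” against “Medium”, was 0.41 on the log2 scale (adjusted p = 1 in edgeR's quasi-likelihood test). For Fth1 the pattern depended on the scaling. Its log2 fold change of “Medium” against “High” was −0.16 and kept that sign under 14 of 15 alternatives, but was 0.23 with library sizes alone. Ciao1, which takes part in the assembly of cytosolic iron-sulfur proteins, had 36 and 24 counts on “High”, 220 and 113 on “Medium”, and 1 and 3 on “Low”. Its fitted difference of “Low” against “Medium” was −6.35 on the log2 scale (adjusted p = 1), a value that rests on counts at the floor of 3 on “Low”.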

How the results depend on the processing

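The log2 fold change of Hmox1 over both films stayed between −2.49 and −1.97, and it was called under 14 of 14 alternatives there and 13 of 15 for each film alone. The group was chosen with this call known, and the alternatives use the same libraries, so nothing is read from these counts. Relative to the median of all rows, which moved from −0.12 to 0.26 with library sizes alone, Hmox1 was at −2.24 in the fit as reported, Ftl1 at −0.87 and Tfrc at 0.94. Higher and lower calls were 3 and 7, and 8 and 6 with library sizes alone or 3 and 4 without ribosomal RNA rows.

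Counts of called genes moved most, and the cause was not tested. For both films against “High” (10) they were 68 with no filter, 56 with a mean of at least 10 counts, 351 with DESeq2, 23 with limma-voom, and from 34 (without “High” replicate 2) to 242 (without “Medium” replicate 2) with a library left out. For “Low” against “High” (4) they were 0 with library sizes alone, 2 without ribosomal RNA rows, 34 with no filter, 30 with a mean of at least 10 counts, 291 with DESeq2, 16 with limma-voom, 0 with only these films and 19 to 65 with a library left out. For “Medium” against “High” (1) they were 0, 48 with no filter, 40, 307 with DESeq2, 14 with limma-voom, 0 with only these films and 11 to 275. For “Low” against “Medium” (0) they were 5 with no filter, 118 with DESeq2, and 0 to 194, the last without “Medium” replicate 2.

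With the replicate number as a block, 57, 30 and 39 genes were called against “High” for both films, “Low” and “Medium”. Over all rows tested, same-numbered libraries did not deviate together (r from 0.00342 to 0.00733). With so wide a spread between replicates (common dispersion 2.04), this cannot show whether the numbers pair libraries, and the labels do not state it.

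Of the 9 genes, 2 were called by DESeq2 in each comparison with “High” (Hmox1 and Ftl1), beside 351, 291 and 307 of 7729 rows for both films, “Low” and “Medium”, and 0 for each film alone with library sizes alone or only these films. Of the 61 rows of the wider lists, DESeq2 called 3 for both films, 2 for “Low” and 3 for “Medium”, shares near or under those of all rows. Without “Medium” replicate 2 from 0 to 1 was called, Nfs1, beside 242 of 8678 rows for both films and 275 for “Medium”. With a library left out, the log2 ratio of Blvra to Blvrb went from −5.58 to 0.92, and that of Tfrc to Fth1 was 0.44 without replicate 1 of “High” and 1.19 without its replicate 2.

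Between “Low” and “Medium”, the log2 fold change went from −0.10 (without “Low” replicate 2) to 0.38 (without “Low” replicate 1) for Hmox1, from −0.19 to 0.35 without the same libraries for Tfrc, which was also at −0.04 without “Medium” replicate 1, and from −0.0615 (without “Low” replicate 1) to 0.76 (without “Low” replicate 2) for Mt3. Slc40a1 had 0 counts in 4 of 6 libraries, and 0 and 185 counts in the 2 “Medium” libraries. At this spread between replicates no difference in it was detectable.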
